A study of Mus musculus with 8 samples.

Results

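The Ikaros family consists of 5 genes, Ikzf1 (Ikaros), Ikzf2 (Helios), Ikzf3 (Aiolos), Ikzf4 (Eos) and Ikzf5 (Pegasus), which encode zinc finger transcription factors. Binding of Bcl11b at these genes was read from ChIP-seq of mouse thymocytes, in which DNA bound by the protein is precipitated and sequenced. Intervals of 201 bp were taken from the deposited normalised table when their nearest protein-coding gene body was a family member within 100 kb of the interval's midpoint. This gave 70 of 63098 intervals, with 26 at Ikzf1, 14 at Ikzf2, 22 at Ikzf3, 6 at Ikzf4 and 2 at Ikzf5. All 70 belonged to the tested intervals, since the normalised table holds the intervals that pass the filter on low counts.

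The samples were freshly isolated thymocytes of 2 genotypes, Bcl11b +/+ (wild type, 3 ChIP libraries) and Bcl11b +/N440K (3 ChIP libraries), the latter with 1 allele coding for an exchange of asparagine for lysine. The question of the study was which Bcl11b sites differ between them. Heterozygous cells hold both forms of the protein, and their signals cannot be told apart here. The sources used here give no age or strain and do not say that replicates were separate animals. The p-values therefore reflect the spread among libraries alone, and that spread may be technical. Input chromatin of wild type cells (2 libraries) was not used here, so levels stand without that background. Reads in the tested intervals numbered 1609762 to 2400250 per library, and levels are CPM, reads scaled to a common library size.

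Ikaros proteins bind DNA through zinc fingers near one end and pair with each other through zinc fingers at the other end. They recruit the NuRD remodelling complex and other corepressors, and Ikaros itself restrains leukaemia in the T lineage. Helios and Eos are best known from regulatory T cells and Aiolos from maturing B and T cells, while Pegasus is the most distant member. Bcl11b, which commits thymocytes to the T lineage, also works with NuRD.

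Bcl11b-bound intervals lay on the 2 transcription starts of Ikzf1 that had a promoter window, and the DNA before both is shown because these starts differ in composition. They are called first and second in the order of these windows. The annotated gene body begins before both, at 11684962. Promoter windows from RefSeq (GRCm38.p6, the coordinates of mm10) matched 2 of the 5 genes, Ikzf1 with 2 starts and Ikzf5 with 1. The 250 bases before each Ikzf1 start follow, on the plus strand and 5′ to 3′, with the bases inside a Bcl11b interval in capitals. The first window is chr11:11685675-11685924 and the second is chr11:11689927-11690176.
Ikzf1 first start: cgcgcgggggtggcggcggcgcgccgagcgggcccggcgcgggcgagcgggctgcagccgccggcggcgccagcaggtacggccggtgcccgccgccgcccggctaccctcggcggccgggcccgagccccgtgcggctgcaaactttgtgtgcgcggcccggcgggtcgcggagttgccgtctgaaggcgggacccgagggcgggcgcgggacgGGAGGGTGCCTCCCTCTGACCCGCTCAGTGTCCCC
Ikzf1 second start: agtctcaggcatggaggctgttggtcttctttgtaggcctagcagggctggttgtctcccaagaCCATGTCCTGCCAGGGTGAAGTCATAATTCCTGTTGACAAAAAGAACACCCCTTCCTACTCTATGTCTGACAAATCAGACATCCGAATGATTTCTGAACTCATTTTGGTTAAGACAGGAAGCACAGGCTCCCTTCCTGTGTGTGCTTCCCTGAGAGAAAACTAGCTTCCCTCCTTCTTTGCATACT

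The first Ikzf1 window had 82.0% G and C and 44 CpG dinucleotides (percentile 99.46 of all windows for CpG), and an interval covered its last 35 bases. The second had 47.6% G and C and 1 CpG, and an interval covered 186 of its 250 bases. Over all 32851 windows the medians were 52.4% and 6 CpG. GGGAA, the core of Ikaros sites, occurred 2 times in the second window on either strand, both as the reverse word, and 0 times in the first. It was present in 56.2% of all windows. GGAA, the ETS core that GGGAA contains, occurred 6 and 0 times and was in 93.4% of windows. The RUNX words TGTGGT and TGCGGT, the Bcl11a word TGACCA, the GATA word AGATAA and the E box CANNTG were absent from both windows on both strands, and were in 14.0%, 5.10%, 11.4%, 9.99% and 66.2% of all windows. These are matches of letters in 250 bases, not measured sites. The Ikzf5 window (chr7:131410479-131410728, minus strand) had 18 CpG and 1 GGGAA and held no interval; the nearest interval was centred 213 bases past the start.

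Bcl11b signal was ordered Ikzf1, Ikzf3, Ikzf2, Ikzf4, Ikzf5. The wild type sum over the intervals of Ikzf1 was 683, 617 and 693 CPM. For Ikzf3 it was 367, 339 and 396 CPM, and for Ikzf2 176, 160 and 182 CPM. Ikzf4 had 50.2, 42.8 and 54.9 CPM, and Ikzf5 had 21.1, 19.8 and 16.7 CPM. No wild type library of one gene reached the level of the gene before it in this order. Among 13284 genes with intervals, Ikzf1 ranked 41st by this sum and Ikzf3 232nd, while Ikzf4 stood above 56.1% and Ikzf5 above 21.1% of genes. A sum grows with the length of the locus. Per 10 kb of gene body the wild type level was 58.7 CPM at Ikzf1, 45.1 at Ikzf3, 12.7 at Ikzf4, 8.77 at Ikzf5 and 5.77 at Ikzf2, which placed the long Ikzf2 gene last.

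**Figure D1:**
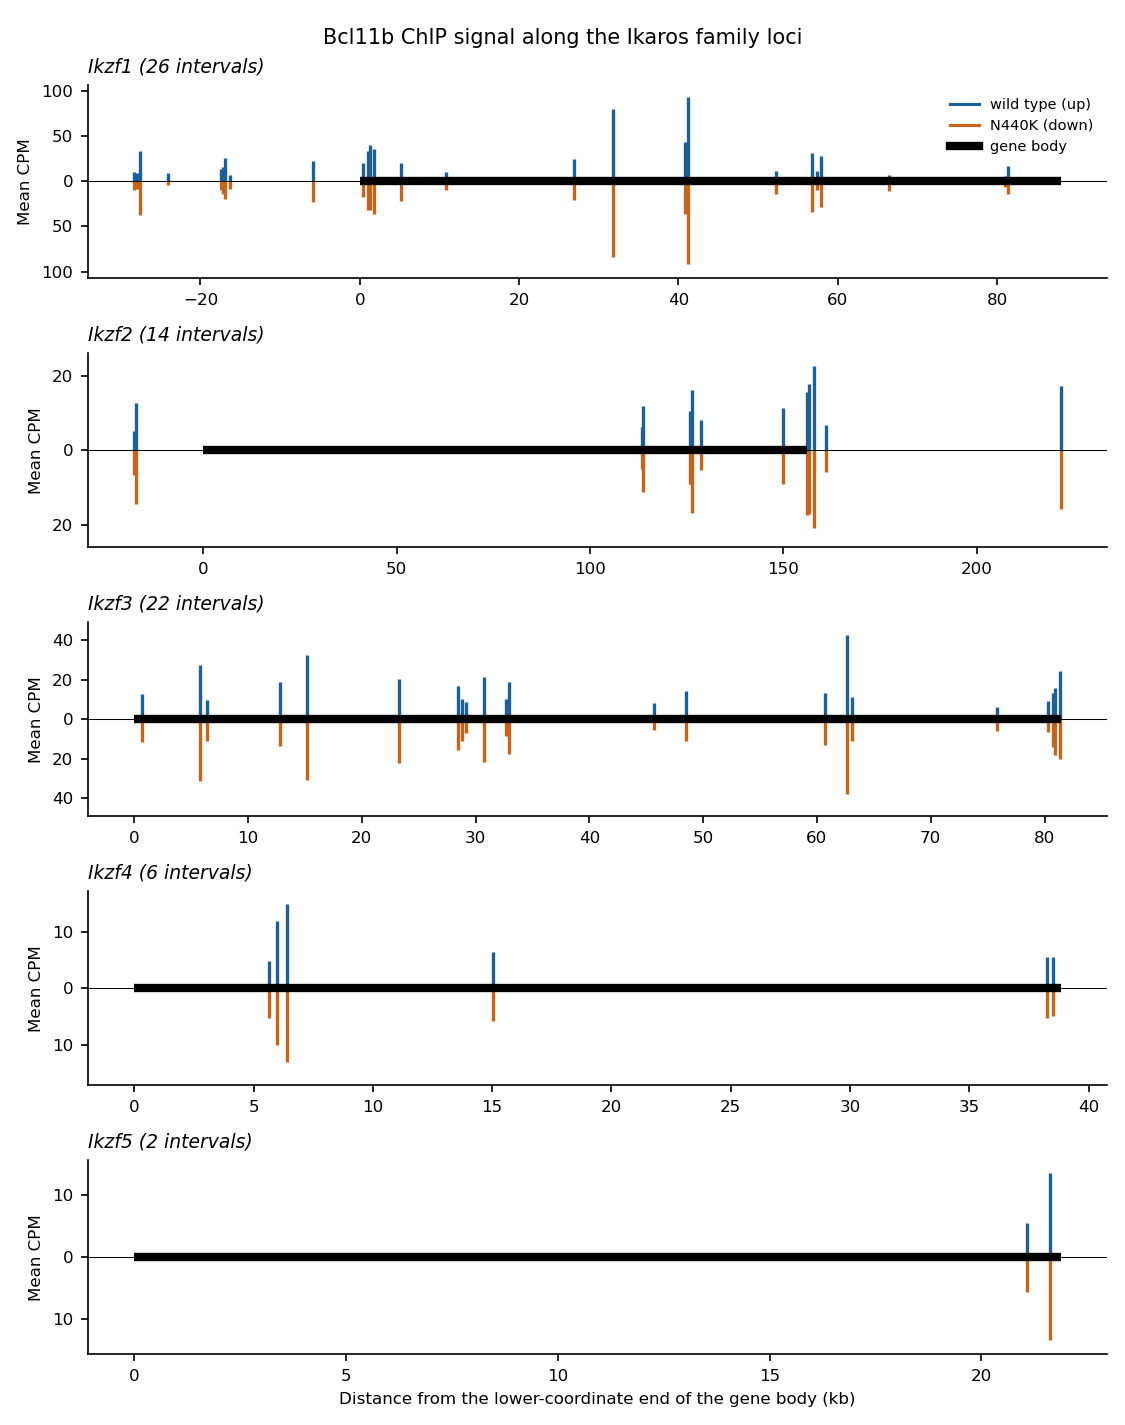
Mean Bcl11b ChIP signal (CPM, vertical axis, own scale for each gene) of the wild type libraries (blue, upwards) and the N440K libraries (orange, downwards) at each interval, against distance from the lower-coordinate end of the gene body in kb; the black bar is the gene body. The Ikzf1 profile is led by intervals at 31.8 and 41.2 kb, all intervals of Ikzf3 lie inside the gene, and the first 113 kb of Ikzf2 hold none of the intervals.

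Ikzf1 (chromosome 11, 11684962 to 11772930, mm10) held the strongest sites of the family. The strongest interval, 41.2 kb into the gene body (11726099 to 11726299), had 96.0, 89.7 and 94.9 CPM in wild type and 95.2, 79.9 and 98.4 CPM in N440K libraries. The next, 31.8 kb into the gene (11716706 to 11716906), had 88.0, 71.2 and 80.7 CPM in wild type and 85.3, 78.1 and 88.5 CPM in N440K. The genotypes overlapped at both, and these 2 were the only family intervals in the top 1% of all intervals by wild type level. They held 26.1% of the Ikzf1 signal. An interval 0.47 kb before the strongest one, at 40.8 kb, had a wild type mean of 44.1 ± 5.14 CPM (SD, n = 3).

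The first start of Ikzf1 lay in a further dense stretch. The gene body lies on the plus strand, and 4 intervals between 0.384 and 1.78 kb from its lower end had a sum of 131 ± 2.65 CPM in wild type, against 117 ± 8.31 CPM in N440K libraries (SD, n = 3). The interval at the first start shown above (11685890 to 11686090) had 32.8, 33.3 and 34.8 CPM in wild type and 27.7, 37.2 and 29.1 CPM in N440K. The pair of intervals after it, at 1.28 and 1.78 kb, had wild type means of 40.3 ± 3.41 and 36.3 ± 3.50 CPM (SD, n = 3). The interval at the second start (11689991 to 11690191) was weaker in every library, with 19.2, 19.3 and 21.9 CPM in wild type and 20.5, 24.4 and 20.8 CPM in N440K. Upstream of the gene body lay 9 intervals, in a group of 3 about 28 kb away, a single one 24.1 kb away, a group of 4 about 17 kb away and a single one 5.84 kb away. These 9 held 22.3% of the gene's wild type signal. In all, 14 of the 26 Ikzf1 intervals were in the strongest 25% of intervals, against 6 of 22 at Ikzf3 and 1 of 14 at Ikzf2.

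**Figure D2:**
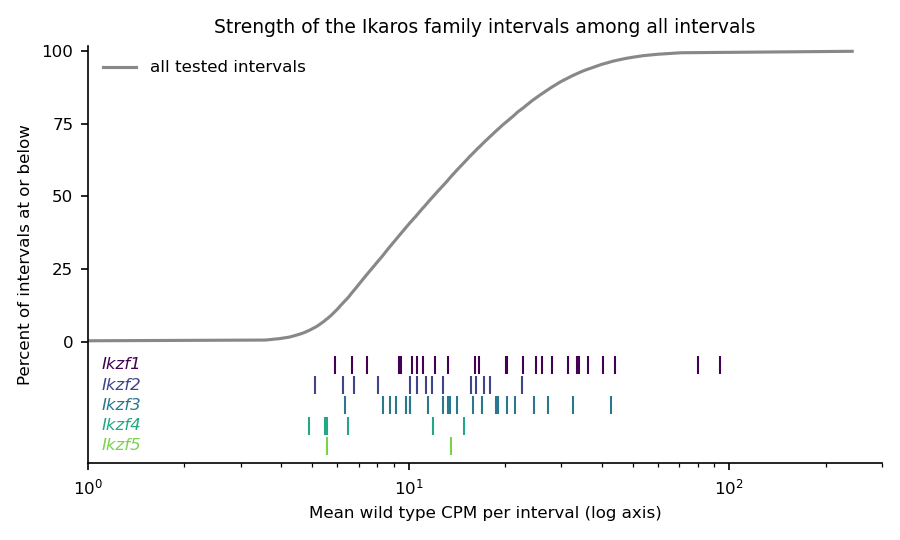
Percent of all 63098 tested intervals at or below each mean wild type level (grey curve; CPM per interval, log axis), with ticks for the intervals of each Ikaros family gene beneath it. Ikzf1 ticks reach 93.5 CPM, whereas the strongest ticks of Ikzf3 and Ikzf2 are at 42.7 and 22.6 CPM.

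Ikzf3 (chromosome 11, 98464610 to 98546031) had its signal spread through the gene. All 22 intervals lay inside the body, at 2.70 per 10 kb, against 1.93 per 10 kb at Ikzf1. The strongest (98527160 to 98527360) had 37.8, 37.9 and 52.4 CPM in wild type and 38.8, 37.8 and 37.0 CPM in N440K. Wild type replicate 3 stood above the other 5 libraries there, which were nearly equal. A group of 4 intervals in the last 1.1 kb at the higher-coordinate end had a sum of 62.8 ± 4.40 CPM in wild type, against 58.9 ± 8.36 CPM in N440K libraries (SD, n = 3).

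Ikzf2 (chromosome 1, 69531207 to 69687351) was bound mostly at one end. Its 8 intervals inside the body all lay in the 42.6 kb nearest the higher-coordinate end, 4 more lay beyond that end, and 2 lay 17.5 and 17.9 kb beyond the other end. The strongest (69688997 to 69689197), 1.75 kb beyond the higher end, had 26.0, 17.3 and 24.5 CPM in wild type and 21.6, 18.9 and 21.9 CPM in N440K, so the genotypes overlapped. At Ikzf4 (chromosome 10, 128630839 to 128669671) a group of 3 intervals around 6 kb from the lower end held 64.4% of the signal. The strongest of them (128637121 to 128637321) had 18.6, 10.3 and 15.9 CPM in wild type and 15.5, 9.15 and 14.6 CPM in N440K. Ikzf5 (chromosome 7, 131388649 to 131410518) had 2 intervals, both in the 0.8 kb nearest its start. The stronger (131410165 to 131410365) had 16.1, 14.4 and 10.3 CPM in wild type and 12.7, 15.9 and 11.5 CPM in N440K.

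Between the genotypes, none of the 70 intervals passed the test (edgeR quasi-likelihood test, two-sided, Benjamini-Hochberg adjusted over all intervals), against 1.14% of all tested intervals. DESeq2 and limma voom also called 0 of the 70, against 0.0951% and 0.504% of all intervals. At an unadjusted edgeR p under 0.05 there were 4 of 70 (5.71%), all with less signal in N440K, against 12.7% of all intervals, or 6.52% in that direction. At 10 of the 70 (14.3%) all libraries of one genotype lay above all of the other, against 17.3% of all intervals. N440K was lower at 9 of these and higher at 1, against 8.95% and 8.34% of all intervals. At 62 of the 70 the 95% interval of the change lay within 2-fold in either direction, against 44933 of all 63098 intervals. Each 95% interval holds for its own site, not for all 62 at once. It rests on the spread among libraries, so larger changes are not excluded.

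**Figure D3:**
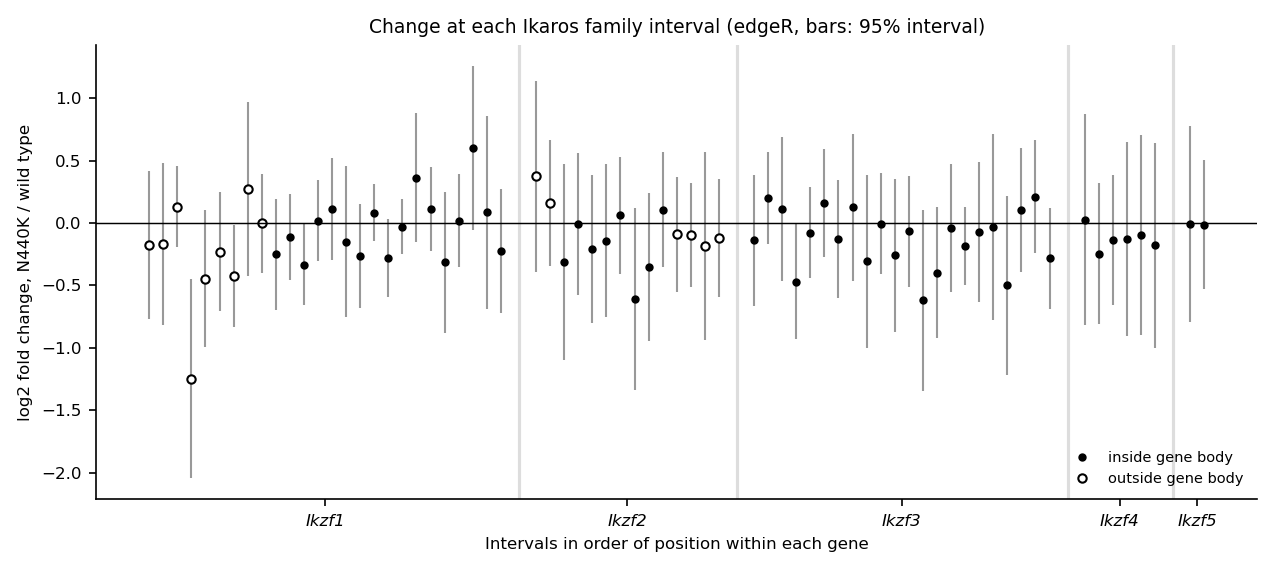
log2 fold change (N440K over wild type, edgeR) of the 70 intervals in order of position within each gene, with 95% intervals as bars; filled points are inside and open points outside the gene body. The Ikzf1 point at -1.25 stands lowest, and 49 of the 70 points are below 0.

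The interval with the smallest p lay 24.1 kb upstream of Ikzf1 (11660759 to 11660959). It had 13.6, 6.59 and 7.73 CPM in wild type and 3.88, 2.44 and 4.68 CPM in N440K libraries, from 22, 16 and 18 reads and 7, 4 and 9 reads. Each N440K library was below each wild type library, and wild type replicate 1 stood well above the other two. The log2 fold change was -1.25 ± 0.40 (SE; edgeR adjusted p = 0.112), a level of 42.1% of wild type (95% interval 24.2% to 73.3%). Without wild type replicate 1 the log2 fold change was -0.93 (edgeR adjusted p = 0.440), and its adjusted p ranged from 0.0940 to 0.788 over the alternatives that tested it, which the filter at the median CPM did not. Measured against the other intervals of Ikzf1, its log2 fold change was -1.17 (edgeR diffSpliceDGE, adjusted p = 0.278).

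The other intervals at an unadjusted p under 0.05 were stronger and changed less. One in the group about 17 kb upstream of Ikzf1 (11667964 to 11668164), named after its values were seen, had 26.0, 21.0 and 31.3 CPM in wild type and 19.9, 18.3 and 19.8 CPM in N440K (edgeR log2 fold change -0.43 ± 0.20 (SE), adjusted p = 0.361). One 1.28 kb into Ikzf1 (11686142 to 11686342) had 39.7, 44.1 and 37.3 CPM in wild type and 35.4, 28.1 and 32.3 CPM in N440K (edgeR log2 fold change -0.34 ± 0.16 (SE), adjusted p = 0.368). The one in Ikzf3, 12.8 kb from its lower end (98477330 to 98477530), had 18.0, 21.4 and 17.6 CPM in wild type and 12.7, 13.4 and 15.1 CPM in N440K (edgeR log2 fold change -0.47 ± 0.23 (SE), adjusted p = 0.383). The genotypes did not overlap at any of these. They were picked by p from the same libraries, so this adds no support. The share over all intervals, not picked this way, was 17.3%. At Ikzf2 the smallest p was at an interval whose wild type mean was 8.01 ± 0.171 CPM, against 5.28 ± 1.42 CPM for N440K (SD, n = 3; edgeR adjusted p = 0.510), without overlap of the libraries. At Ikzf4 it was at one with 11.8, 10.3 and 13.7 CPM in wild type and 12.2, 8.54 and 9.37 CPM in N440K (edgeR adjusted p = 0.785), where the genotypes overlapped.

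**Figure D4:**
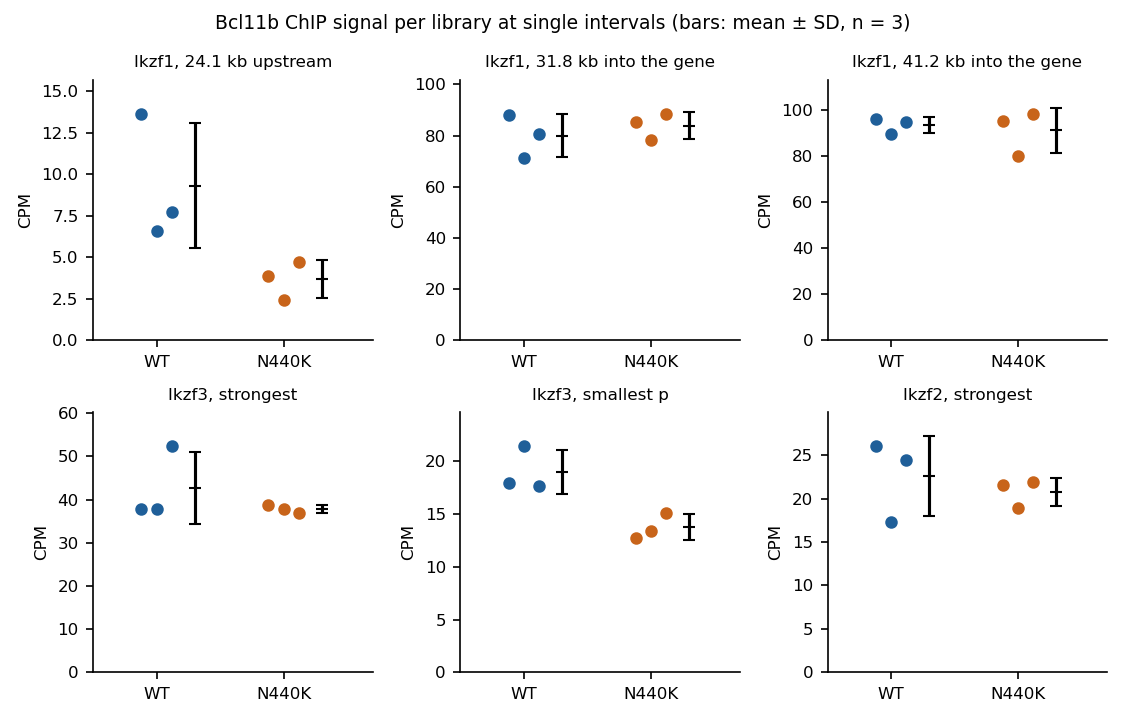
Bcl11b ChIP signal (CPM) in each library at 6 intervals, wild type in blue and N440K in orange, with mean ± SD (n = 3) in black. At the interval 24.1 kb upstream of Ikzf1 all N440K libraries are at or below 4.68 CPM and all wild type libraries at or above 6.59 CPM, while at the strongest sites of Ikzf1, Ikzf2 and Ikzf3 the genotypes overlap.

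The strongest sites bounded the change most tightly. At the interval 41.2 kb into Ikzf1 the N440K level was 98.0% of wild type (95% interval 84.1% to 114%; edgeR adjusted p = 0.947). At 31.8 kb it was 106% (90.3% to 124%; adjusted p = 0.830). At the first start the log2 fold change was -0.11 ± 0.17 (SE; edgeR adjusted p = 0.848) and at the second start 0.11 ± 0.21 (SE; adjusted p = 0.882). The strongest interval of Ikzf3 had -0.18 ± 0.16 (SE; edgeR adjusted p = 0.686), that of Ikzf2 -0.09 ± 0.21 (SE; adjusted p = 0.905), that of Ikzf4 -0.14 ± 0.26 (SE; adjusted p = 0.881) and that of Ikzf5 -0.01 ± 0.26 (SE; adjusted p = 0.990).

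Whole loci also did not pass. With reads summed over the intervals of each gene, edgeR called 3.31% of 13284 genes and 0 of the 5 family members, with 0 of the 5 also at an unadjusted p under 0.05 (15.7% of all genes) and 0 by DESeq2 and limma voom. Ikzf1 summed to 640, 606 and 642 CPM in N440K libraries, inside the wild type range for 2 of them, a level of 93.7% of wild type (95% interval 85.0% to 103%; edgeR adjusted p = 0.564). Ikzf3 had 315, 351 and 368 CPM, or 92.8% (82.8% to 104%; adjusted p = 0.573). Ikzf2 had 168, 153 and 169 CPM, or 93.7% (82.4% to 106%; adjusted p = 0.689). The genotypes overlapped in all of these sums. The fitted log2 fold change was below 0 for all 5 genes, as for 49.8% of all genes, though that of Ikzf5 (-0.03) was above 0 with loess offsets and, at the most, 0.050 when 1 library was left out. Ikzf4, with 60 to 128 reads per library, had 52.6, 36.6 and 43.7 CPM, or 89.3% (72.2% to 111%; edgeR adjusted p = 0.676). Ikzf5, with 32 to 48 reads, had 17.7, 22.6 and 16.7 CPM, or 97.9% (72.7% to 132%; adjusted p = 0.965). An exact permutation test over the 6 libraries, two-sided, gave p = 0.3, 0.5, 0.4, 0.5 and 0.9 in that order, where 3 against 3 allow no less than 0.1. None of the 70 intervals was called against the rest of its gene (edgeR diffSpliceDGE, adjusted p under 0.05), against 0.178% of all intervals. At an unadjusted p under 0.05 there were 2, both in Ikzf1, against 7.26% of all intervals.

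**Figure D5:**
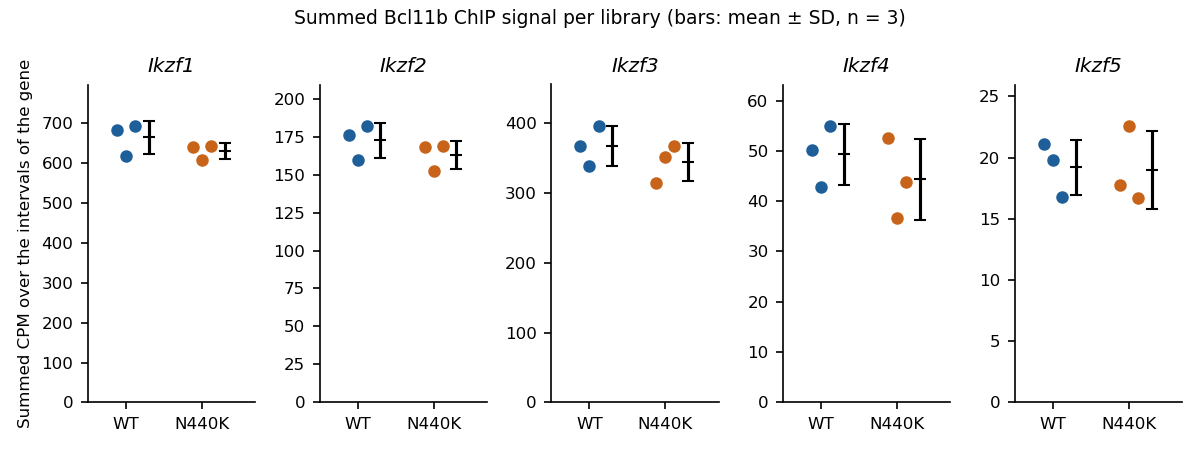
Summed Bcl11b ChIP signal (CPM) over the intervals of each Ikaros family gene in each library, wild type in blue and N440K in orange, with mean ± SD (n = 3) in black; each panel has its own vertical axis from 0. The libraries of the genotypes overlap for all 5 genes.

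Most of the small differences were toward less signal in N440K. The median log2 fold change of the 70 intervals was -0.10, against 0.00 over all tested intervals, and 49 of the 70 (70.0%) were below 0, against 49.5% of all. In the N440K libraries the median log2 ratio to the wild type mean was -0.14, -0.17 and -0.13, while single wild type libraries had 0.02, -0.16 and 0.13 against the other pair. These references differ, so the wild type values are not on the scale of the N440K values. A log ratio of a single library to a mean of several tends below 0 where reads are few. The same medians over all intervals were not computed, so these values alone do not show a loss. The median log2 fold change was -0.17 without wild type replicate 2 and -0.025 without wild type replicate 3. By gene, the median was -0.13 at Ikzf1, -0.11 at Ikzf2, -0.08 at Ikzf3, -0.13 at Ikzf4 and -0.01 at Ikzf5. Within Ikzf1 it was -0.18 over the 9 upstream intervals and -0.03 over the 17 inside the body. The upstream intervals summed to 149, 136 and 161 CPM in wild type and 131, 124 and 142 CPM in N440K (exact permutation test, two-sided, p = 0.2), a split chosen after the values were seen.

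The genes whose summed signal most resembled Ikzf1 over the 6 libraries were Stx6, Ubxn11 and Zfp217, with Pearson r of 0.996, 0.995 and 0.989 among 4151 genes with at least 5 intervals. These libraries share their scaling, and 6 points from so many genes give high values readily, so this is a description only.

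Genes around the family were taken as 2 lists, corepressors that Ikaros proteins bind and genes known to be bound or regulated by Ikaros in lymphocytes. The 17 corepressor genes (NuRD, CtBP and Sin3 subunits) had 110 tested intervals, and edgeR, DESeq2 and limma voom called 0 of them. Their median log2 fold change was 0.09, against 0.00 over all intervals. At an unadjusted edgeR p under 0.05 there were 7 (6.36%, against 12.7% of all intervals), 6 of them higher in N440K and 1 lower. Of all 63098 intervals, 3887 were higher and 4111 lower at that threshold. A log2 fold change above 0 was found at 73 of the 110, against 31847 of all 63098. The list as a set was not tested. The smallest p was at the lower one, in Chd4, the NuRD remodelling ATPase, with 9.29, 14.8 and 10.7 CPM in wild type and 6.09, 6.71 and 6.25 CPM in N440K (edgeR log2 fold change -0.89 ± 0.32 (SE), adjusted p = 0.166). The genotypes did not overlap at this interval. Of the 18 Ikaros target genes, 16 had intervals, 160 in all, with a median of 0.03. Of these 1 was called higher, against 0.460% of all intervals, and 0 lower, against 0.681%. The called interval lay 19.5 kb from Il2ra, the interleukin 2 receptor alpha chain, with 7.44, 8.65 and 8.58 CPM in wild type and 14.4, 17.7 and 17.2 CPM in N440K (edgeR adjusted p = 0.0480). The call was lost with DESeq2, limma voom, total counts as library size and the filter at the median CPM, and when any 1 library was left out. The sum over all 16 Il2ra intervals did not pass (edgeR log2 fold change 0.07, adjusted p = 0.799). An interval 5.49 kb from Il2ra went the other way, with 25.8 ± 4.77 CPM in N440K against 36.5 ± 3.91 CPM in wild type (SD, n = 3, edgeR adjusted p = 0.187).

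Among the gene totals of these lists, over 17 and 16 genes, 1 was called, against 3.31% of all genes, a share near that background. It was that of Dtx1, which encodes the Notch regulator Deltex. Its 8 intervals summed to 92.3, 95.9 and 106 CPM in wild type and 127, 139 and 121 CPM in N440K, without overlap (edgeR log2 fold change 0.37 ± 0.10 (SE), adjusted p = 0.0353). DESeq2 did not call it (adjusted p = 0.174), and leaving out any 1 library other than wild type replicate 3 ended the call. Dntt, Rag1, Ptcra, Cd8a, Cd8b1 and Cd4, which mark developing T cells or their recombination, had intervals and no called total. Rag2, the partner of Rag1, and Vpreb1 were the target genes with 0 intervals. Cd4 had the lowest log2 fold change of the 6 genes with totals named here, -0.26 (edgeR adjusted p = 0.228).

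The labelled cell type was set against marker genes, where binding is not expression. All 6 T cell genes (Cd3e, Cd3d, Cd4, Cd8a, Rag1, Ptcra) had intervals, the strongest near Cd3d at 82.1 CPM in wild type. Their wild type totals were 197, 135, 105, 310, 160 and 31.0 CPM in that order. Ptcra had 2 intervals, at most 17.5 CPM. Of the B cell genes, Pax5 had 1 interval, and Cd79a and Ms4a1 had 0. Of the 4 myeloid genes, Itgam had 13 intervals and Cebpa 2, while Csf1r and Lyz2 had 0. The Itgam total was lower in N440K, 165 ± 3.89 against 215 ± 41.2 CPM in wild type (SD, n = 3; edgeR adjusted p = 0.0345). DESeq2 and limma voom did not call it (adjusted p = 0.132 and 0.0661), and the call held without wild type replicate 2 but not without any other single library. Its part in the values of the Ikaros family was not tested.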

How the data were processed

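Per the labels' protocols, formaldehyde-fixed thymocytes gave chromatin for precipitation with rabbit anti-Bcl11b and sequencing on an Illumina HiSeq instrument. Build mm10 and the tools edgeR 3.38.2, MACS2, fastp 0.20.0, bedtools, SAMtools 1.9 and Bowtie2 2.3.5 appear in the submitters' processing notes without their roles. The sources used here do not say how libraries were combined to call peaks. Duplicate removal or a pooled call could change which intervals exist and their counts.

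The authors deposited whole-number read counts in 93708 intervals, not normalised. The authors deposited CPM values for 63098 of them; 100% came back as whole reads (tolerance 0.01), so the counts were tested.

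Intervals were filtered with filterByExpr, scaled with TMM and tested with edgeR 4.0.16 (glmQLFit, glmQLFTest, genotype as the only term; R 4.3.3), with Benjamini-Hochberg adjustment over all 63098 intervals and a threshold of 0.05. The same fit was run on counts summed per gene. diffSpliceDGE compared an interval with the rest of its gene. Nearest genes came from 21896 RefSeq protein-coding genes (GRCm38.p6); where gene bodies tied, which no family interval did, the first by start was used. The table gives no strand, so strand is stated only where the promoter table holds it. Neighbouring intervals under 1 kb apart were described as groups. Scaling sets the typical log ratio near 0, so a shift shared by most sites would not be seen.

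Named intervals were, for each gene, the strongest, the one with the smallest p and the one nearest a known start; for Ikzf1 also the 5 strongest. Members and lists were chosen with earlier results of these data known. Alternatives were DESeq2 1.42.0, limma 3.58.1 voom, total count, upper quartile and loess scaling, other filters, other assignment distances, a replicate block and the omission of each library; those for the lists were chosen after seeing the data. No library was a copy of another (chi-square per degree of freedom at least 1.24 between pairs). The tests were checked on simulated data. There the interval test recovered 3 of 50 changes of 1.5-fold and 20 of 50 of 2-fold. The test against the rest of the gene recovered 0 of 45 and 7 of 42. Changes of this size can therefore be missed at single intervals. The result of 1 marker gene is not reported here.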

Additional observations from a re-analysis of the deposited data

Results flagged for a closer look

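Weak intervals near the family appear in the count table but not in the normalised table, and were not in the main test. With no filter they were tested, and 0 of 85 family intervals were called (edgeR, smallest adjusted p = 0.116). The weak intervals numbered 3 at Ikzf1, 7 at Ikzf2, 2 at Ikzf3, 2 at Ikzf4 and 1 at Ikzf5, each with 36 to 60 reads over the 6 libraries. Single libraries had 1 to 17 reads there.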

How the results depend on the processing

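No family interval was called under any alternative tried. These covered 70 intervals, or 56 with the filter at the median CPM, 65 within 20 kb, 55 inside gene bodies and 85 with no filter. The 5 gene totals passed under none of their 16 alternatives. Their smallest adjusted p over these was 0.222, 0.469, 0.287, 0.465 and 0.688 for Ikzf1 to Ikzf5. The median log2 fold change of -0.10 was -0.14 with upper quartile scaling and -0.17 to -0.025 without 1 library. The Ikzf5 total (-0.030) was 0.022 with loess offsets, -0.18 with no filter and -0.16 to 0.050 without 1 library. Named intervals near 0 changed sign. The Ikzf5 interval had 0.0041 with limma voom and 0.017 with no filter, and -0.19 to 0.098 without 1 library. The Ikzf1 interval at 1.78 kb had -0.0016 with total counts, -0.024 with upper quartile scaling, -0.047 with loess offsets and -0.032 to 0.11 without 1 library. That at 31.8 kb had -0.012 with loess offsets, and that at 41.2 kb had 0.0016 with no filter and -0.090 to 0.053 without 1 library. The strongest of Ikzf2 and of Ikzf4 had -0.27 to 0.0016 and -0.37 to 0.048 without 1 library. The cause was not tested.

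Target list intervals called, 1 in the report, numbered 0 with DESeq2, limma voom, total counts, the stricter filter and without any 1 library, and 2 with loess offsets. Target gene totals called numbered 0 with DESeq2 and the stricter filter and 0 to 1 without 1 library. Myeloid totals called numbered 0 with DESeq2, limma voom, no filter, the stricter filter and inside gene bodies only, and 0 to 1 without 1 library.

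With replicate number as a block, 0 of the 70 were called and the median was -0.11. Over all intervals 753 were called against 720, and over all gene totals 539 against 440. Deviations of libraries with the same number had correlations of -0.0037, 0.028 and 0.058. Those with different numbers had -0.047 to 0.017. Whether the numbers stand for pairs cannot be told from values this small. Depth limits Ikzf4 and Ikzf5 most, with at most 128 and 48 reads per library.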
